A study of Rattus norvegicus with 32 samples.

Results

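Alpha and beta tubulins are the paired subunits of the microtubule, the hollow polymer that carries the mitotic spindle, organelle transport and the shape of a cell. They are made by small gene families whose products differ mainly in a short acidic tail, and gamma tubulin, a further kind, nucleates new microtubules at the centrosome. The genes described here were taken by name from the array: Tuba1a, Tuba1b, Tuba1c and Tuba4a encode alpha tubulins, Tubb2a, Tubb2b, Tubb3, Tubb5 and Tubb6 encode beta tubulins, and Tubg1, which was included with them, encodes a gamma tubulin. These 10 genes were represented by 12 probes, of 26583 gene names and 30367 probes on the array. The members were taken by gene name, with earlier results of these data known.

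RNA from the rat glioma line C6 was hybridized with a single dye to Agilent whole rat genome arrays. Confluent cells were left untreated (Control), or received angiotensin II at 100 nM (Ang II). In the 2 remaining groups the same dose of Ang II followed 30 min of pre-treatment at 10 µM with Losartan (Ang II+Los), an antagonist of the AT1 receptor, or with PD123319 (Ang II+PD123319), an antagonist of the AT2 receptor. Each group was measured at 3 h and at 6 h with 4 replicates, so that 8 groups and 32 arrays were compared. No group received an antagonist without Ang II. Nothing in the labels says that replicates came from separate cultures, so a p-value here measures the spread between these samples, which may be technical.

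Each replicate number was 1 slide with 1 array of every group, in a fixed order of positions, so treatment and array position cannot be told apart. The share of an array's spots that stood well above background was between 55.9% and 64.7% (3 h) and between 64.2% and 79.8% (6 h). Of the glial markers on the array, 4 of 6 (S100b, Vim, Nes and Cnp) were well above background on all 32 arrays, while the astrocyte marker Gfap was so on 2 arrays and Slc1a3 on 0. Of the neuronal markers 1 of 5 (Snap25), of the oligodendrocyte markers 1 of 4 (Mag), of the microglial markers 3 of 5 and of the endothelial markers 0 of 4 were well above background on all 32 arrays.

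Tubulin genes resemble each other, so the probe sequences are shown where they bear on which gene was measured. The probes are 60 bases long, and their positions are those in the file headers, on rn4; no gene annotation of that build was used here, so exons and UTRs are not named. Of the 66 pairs of member probes, 1 pair shared a window with over 75% identity, and the next pair reached 64.5%. The pair is a probe of Tuba1b, placed at chr19:56546427-56546486 on the plus strand, and a probe of Tuba1c, placed at chr7:137817177-137817235 on the plus strand. Their shared window of 38 bases is printed below with the differing bases in capitals.
Tuba1b: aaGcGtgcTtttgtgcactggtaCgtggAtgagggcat
Tuba1c: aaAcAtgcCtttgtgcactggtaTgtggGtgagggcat

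The windows were identical at 33 of 38 bases (86.8%) and differed at 5, namely G3A, G5A, T9C, C24T and A29G, counted from 1 at the 5′ end of the window with the base of Tuba1b first. The accession list of this Tuba1b probe also held the RefSeq transcript of Tuba1a. The second probe of Tuba1b lay at chr7:137706854-137706913 on the minus strand, apart from the chromosome of the first, and the second probe of Tuba1c at chr7:137816836-137816895 on the plus strand. How much cross-hybridisation contributes to these signals was not tested.

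The probes of 2 members, Tuba4a and Tubb6, are shown for their long runs of acidic codons, which were not counted in the other member probes. The probe of Tuba4a (chr9:74496576-74496635, minus strand) had 1 open frame, which ended in a stop codon. The probe of Tubb6 (chr18:63928978-63929037, plus strand) had 2 open frames and reached no stop codon, and the frame with more acidic codons is marked. Capitals mark in-frame GAA, GAG, GAT and GAC codons, which stand for glutamate and aspartate.
Tuba4a: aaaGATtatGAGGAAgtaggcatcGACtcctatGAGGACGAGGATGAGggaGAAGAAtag
Tubb6: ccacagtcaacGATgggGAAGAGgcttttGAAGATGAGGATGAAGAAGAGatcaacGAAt

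Acidic codons made up 11 of 20 codons in the Tuba4a probe and 11 of 19 in the Tubb6 probe. Since the Tubb6 frame was picked for such codons, its count is a description only. Tubulins are known to end in an acidic tail, in which isotypes differ most and on which the enzymes that add glutamate and other groups act. The remaining single probes lay at chr7:137729455-137729514 on the minus strand for Tuba1a, chr17:37142966-37143025 for Tubb2a, chr17:37090908-37090967 for Tubb2b, chr19:53751646-53751705 for Tubb3, chr20:3063856-3063915 for Tubb5 and chr10:90144343-90144402 for Tubg1, these last 5 on the plus strand. The probe of Tuba1a was printed in 10 spots, whose log2 signals were averaged.

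Signals were well above background in all 4 arrays of every group for 9 of the 10 genes, apart from 2 spots left out by an outlier flag. Those were the spot of Tubb5 in Control replicate 1 at 3 h and that of 1 probe of Tuba1c in Ang II+PD123319 replicate 2 at 3 h, and the genes have no value on these arrays. Tuba4a, an alpha tubulin known from muscle, brain and platelets, was well above background on 3 of 4 Control arrays, 3 of 4 Ang II arrays and 2 of 4 arrays of each antagonist group at 3 h, and was not tested there. At 6 h only 1 array, in Ang II+Los, lacked such a signal. Thus 9 members were tested at 3 h, among 13630 genes, and 10 at 6 h, among 16446 genes. Tubb3, although well above background, was dim: its group means at 6 h ran from 4.97 to 5.80, against 4.31 to 4.69 for Tuba4a.

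The largest spread among the tubulin signals was between slides and not between treatments. At 3 h the 4 slide means of a member, each over the arrays of 1 slide, ranged over a median of 2.14 on the log2 scale, compared with 0.66 for all genes. Within a slide the 4 treatments ranged over a median of 0.53 for the members and 0.44 for all genes. Tubb2b, a neuronal beta tubulin, had the widest range, with slide means of 11.77, 9.14, 8.47 and 9.14 for replicates 1 to 4 at 3 h, a range of 3.3. Tuba1a had slide means of 14.89, 14.10, 12.17 and 14.44, and Tubb6 of 13.30, 12.02, 10.71 and 11.87. In 8 of 9 members slide 1 was highest and slide 3 lowest at 3 h. The exception was Tubb3, with slide means of 5.76, 5.91, 5.80 and 6.22.

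At 6 h the same measure was 0.90 for the members and 0.52 for all genes, and slide 2 was lowest in 7 of 10. Among genes with a mean log2 signal above 11, the range of slide means had a median of 0.51 over 2611 genes at 3 h, against 2.14 for the 7 members among them, and of 0.33 over 2795 genes at 6 h, against 1.00. Slide 3 was lowest in 32.4% of these 2611 genes at 3 h. The range between slides exceeded the range within slides in 8 of 9 members at 3 h and in 8 of 10 at 6 h, the exceptions being Tubb3 (0.46 against 0.61 at 3 h, 0.81 against 0.98 at 6 h) and Tuba4a (0.60 against 0.75 at 6 h). Slide, replicate and hybridisation cannot be told apart. All comparisons below were therefore read within slides.

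**Figure D1:**
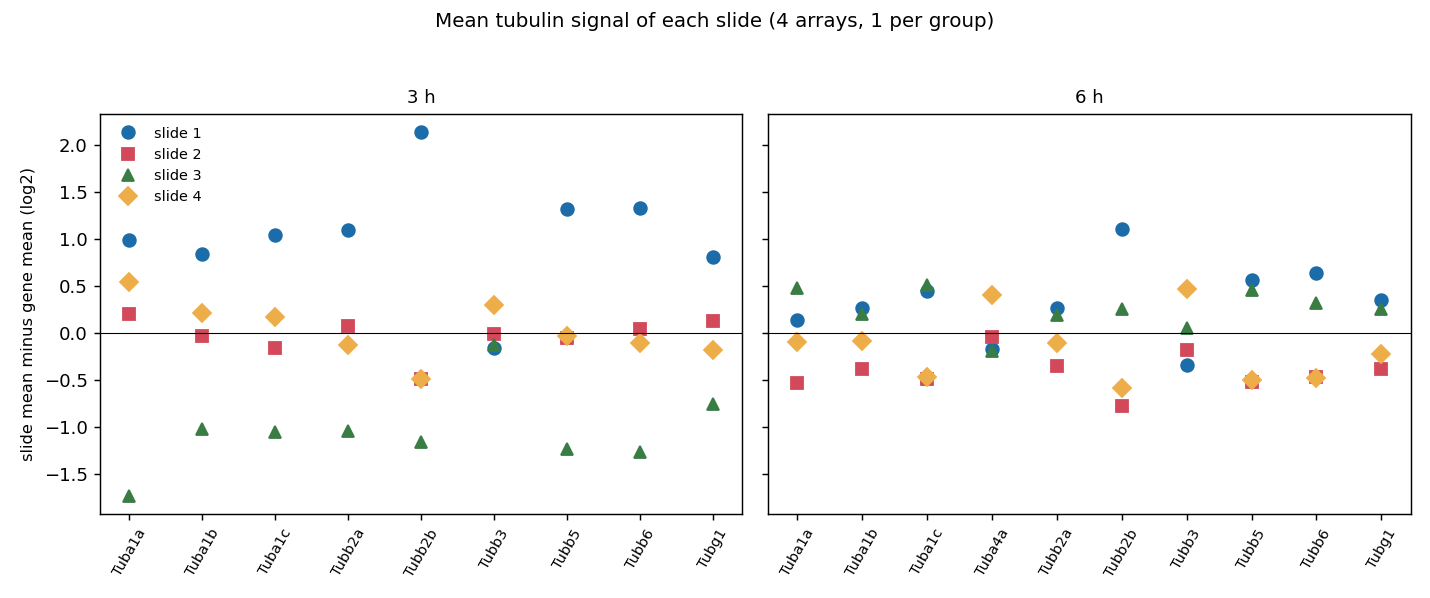
Mean log2 signal of each tubulin gene on each slide, drawn as its difference from the mean of that gene at that time, for slides 1 to 4 at 3 h and at 6 h; a slide mean is over 4 arrays, or 3 for Tubb5 on slide 1 and Tuba1c on slide 2 at 3 h. At 3 h slide 3 is the lowest and slide 1 the highest of the 4 in 8 of 9 genes, with Tubb3 as the exception. For most genes the points lie closer together at 6 h.

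The comparison Ang II x Control (3 h) asks which genes changed with the peptide when both of its receptors could respond. Most tubulin signals were higher with Ang II, and 2 of 9 members, Tuba1a and Tubb6, passed the limit used in the study's methods, an unadjusted p under 0.05. This limit was passed by 12.6% of all genes, and by 5.29% upwards. No member and no other gene had an adjusted p under 0.05 in limma with Benjamini-Hochberg adjustment (0 of 13630 genes, of which 1723 had an unadjusted p under 0.05; the methods' t-test also gave 0 after adjustment, with 1192 before it). The log2 fold change was above 0 in 8 of 9 members, with a median of 0.24, while 50.3% of all genes lay above 0 with a median of 0.00. The same 8 of 9 were found after scaling to the 75th percentile and after quantile normalization.

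Tubb6, a broadly expressed beta tubulin, had log2 signals of 13.25, 11.74, 10.57 and 11.54 in Control replicates 1 to 4 and of 13.40, 12.33, 10.80 and 12.12 with Ang II at 3 h. The Ang II array was the higher one on every slide, by 0.15, 0.59, 0.23 and 0.58, although the groups overlap as wholes because the slides differ more. Its log2 fold change was 0.39 ± 0.11 (SE), with a 95% confidence interval of 0.14 to 0.63, which is 1.31-fold (adjusted p = 0.325).

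Tuba1a, the alpha tubulin best known from developing neurons, had log2 signals of 14.66, 13.72, 12.19 and 14.16 in Control and of 14.89, 14.58, 12.14 and 14.84 with Ang II. The Ang II array was higher on slides 1, 2 and 4 and slightly lower, at −0.05, on slide 3. The log2 fold change was 0.43 ± 0.15 (SE), with an interval of 0.10 to 0.76, or 1.35-fold (adjusted p = 0.338).

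The other members did not pass the limit. Tubb2a (0.24, adjusted p = 0.395), Tubb2b (0.13, adjusted p = 0.764) and Tubg1 (0.25, adjusted p = 0.524) were above 0 on 4 of 4 slides, and Tubb5 (0.25, adjusted p = 0.551) on all 3 slides that gave a pair. Tuba1b (0.17) was above 0 on 3 of 4 slides and Tuba1c (0.08) on 2 of 4. Tubb3, the class III beta tubulin used as a neuronal marker, was the one member below 0, at −0.42 (95% confidence interval −0.91 to 0.07, adjusted p = 0.438). Its log2 signals were 5.82, 6.78, 5.58 and 6.73 in Control and 5.78, 5.76, 5.61 and 6.09 with Ang II, so the difference lay on slides 2 and 4, where Control was high.

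In whole cultures, fewer cells of a type and less RNA per cell cannot be told apart. The 2 calls rest on slides 2 and 4 in part: Tuba1a no longer passed without replicate 2 (0.29) or replicate 4 (0.34), nor Tubb6 without replicate 4 (0.32), and a fit without the slide as a block called 0 members. Within scans, the mean difference was 0.54 in scan 1 and 0.32 in scan 2 for Tuba1a, and 0.37 and 0.40 for Tubb6. Of all genes past the limit, 58.2% were lower with Ang II, and 78.1% and 69.3% were under 75th percentile scaling and quantile normalization.

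**Figure D2:**
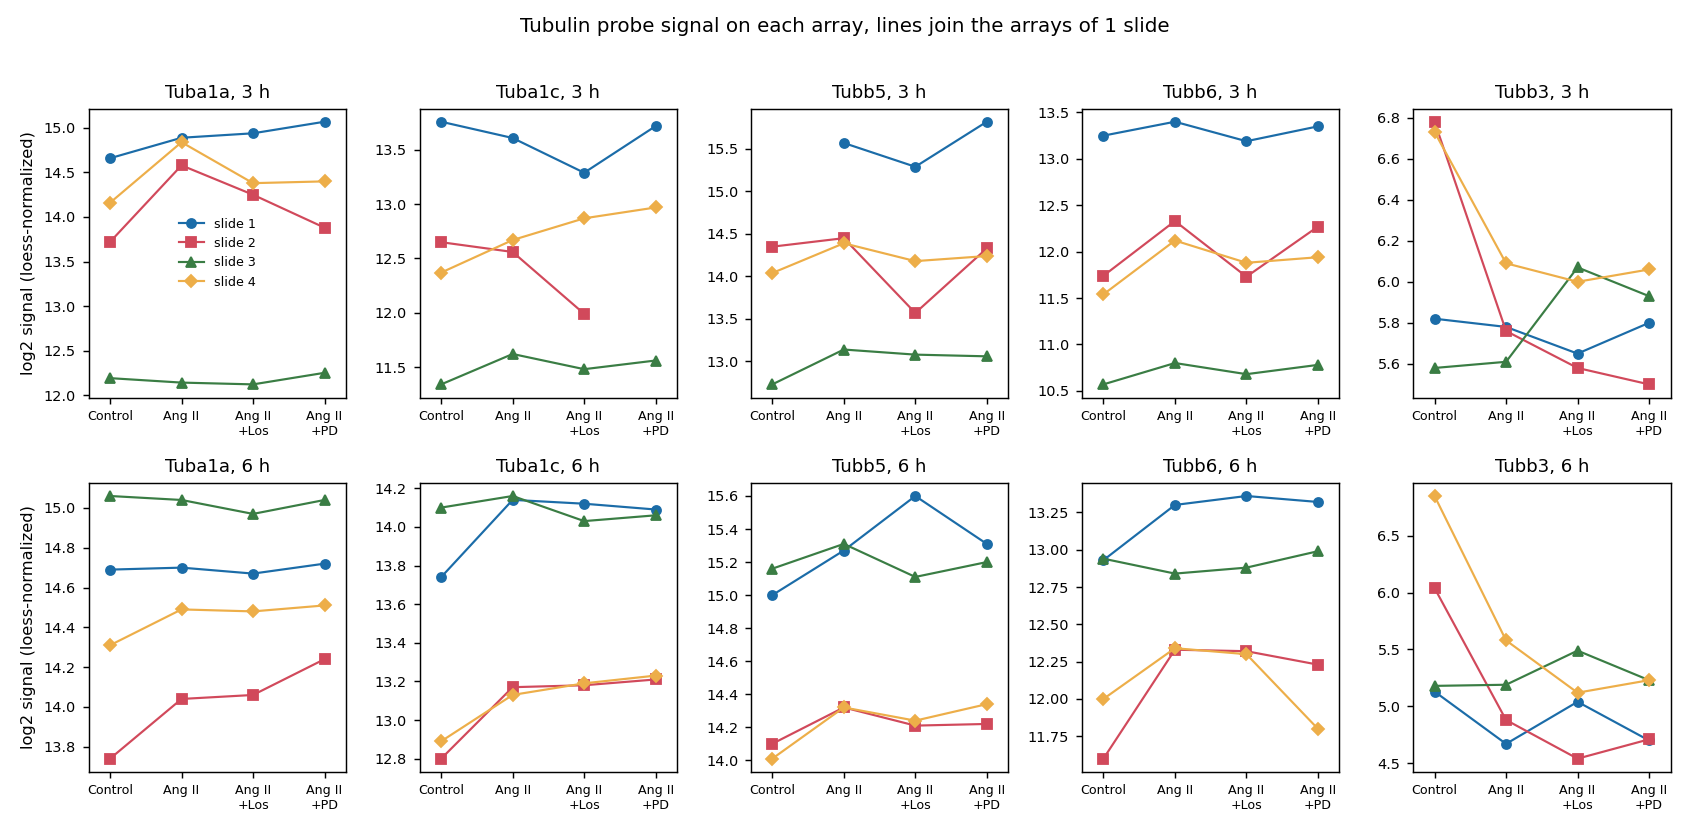
Log2 signal of Tuba1a, Tuba1c, Tubb5, Tubb6 and Tubb3 on each array at 3 h and at 6 h, with the 4 groups along each x axis, a scale of its own for each panel, and lines joining the arrays of 1 slide. For Tubb6 at 3 h the Ang II point lies above the Control point on 4 of 4 slides, and for Tubb3 the Control points of slides 2 and 4 stand above the treated points of their slides at both times; the arrays without a value (Tubb5 in Control and Tuba1c in Ang II+PD123319 at 3 h) are left out.

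At 6 h, Ang II x Control gave 4 of 10 members past the same limit: Tuba1c, Tubb5 and Tubb6 were higher with Ang II and Tubb3 was lower. The limit was passed by 21.5% of all genes at this time, 10.6% upwards and 10.8% downwards. The median log2 fold change of the members was 0.12, with 9 of 10 above 0, against 48.7% of all genes. Under 75th percentile scaling 8 of 10 members were above 0. No member had an adjusted p under 0.05 in limma; over all 16446 genes the count was also 0, with 3535 at an unadjusted p under 0.05.

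Tuba1c, a widely expressed alpha tubulin, had log2 signals of 13.74, 12.80, 14.10 and 12.89 in Control and of 14.14, 13.17, 14.16 and 13.13 with Ang II. The Ang II array was higher on 4 of 4 slides, by 0.39, 0.37, 0.06 and 0.24. The log2 fold change was 0.26 ± 0.08 (SE; interval 0.09 to 0.44), or 1.2-fold, with an adjusted p of 0.119. Both probes of Tuba1c, when fitted separately, stayed past the limit at 0.30 (adjusted p = 0.118) and 0.23 (adjusted p = 0.134), the lower value being that of the probe whose window resembles Tuba1b.

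Tubb5, a beta tubulin found in most tissues, had log2 signals of 15.00, 14.10, 15.16 and 14.01 in Control and of 15.27, 14.32, 15.31 and 14.32 with Ang II, a rise on each of the 4 slides. The log2 fold change was 0.24 ± 0.09 (SE; interval 0.04 to 0.44), with an adjusted p of 0.17.

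Tubb6 had log2 signals of 12.93, 11.60, 12.94 and 12.00 in Control and of 13.30, 12.33, 12.84 and 12.34 with Ang II. The Ang II array was higher on slides 1, 2 and 4 and lower on slide 3 by a small margin. The log2 fold change was 0.33 ± 0.14 (SE; interval 0.03 to 0.63), or 1.26-fold, with an adjusted p of 0.196. Tubb6 was thus past the limit in both time intervals, on separate arrays.

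Tubb3 had log2 signals of 5.13, 6.04, 5.18 and 6.85 in Control and of 4.67, 4.88, 5.19 and 5.58 with Ang II at 6 h. Its Control arrays were again highest on slides 2 and 4, as at 3 h, and the groups overlap. The log2 fold change was −0.72 ± 0.27 (SE; interval −1.32 to −0.12), or 0.606-fold, with an adjusted p of 0.173. From the deposited log2 values, after the same loess, it was −1.39 with an adjusted p of 0.0406, the one adjusted p under 0.05 of a member in any fit of this comparison. Over all alternatives the value ran from −1.39 to −0.37, the latter with a normexp background, and it passed the limit under 10 of 14. The neuronal marker Snap25 was at −0.10 at 3 h (adjusted p = 0.826) and at 0.01 at 6 h (adjusted p = 0.984). Of the other neuronal markers on the array, Syp, Nefl and Elavl3 were well above background on 6, 7 and 6 of 32 arrays and Syt1 on 0.

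The remaining members were at 0.12 (Tuba1a), 0.04 (Tuba1b), 0.19 (Tuba4a), 0.07 (Tubb2a), 0.07 (Tubb2b) and 0.12 (Tubg1), and none of these passed the limit. Leaving out a replicate removed calls: Tuba1c no longer passed without replicate 1 (0.22), Tubb5 without replicate 2 (0.25) or 4 (0.22), Tubb6 without replicate 1 (0.32) or 2 (0.20), and Tubb3 without replicate 2 (−0.57) or 4 (−0.53). Without the slide as a block, 0 of the 10 passed. In the fit with the block, 50.5% of all genes past the limit were lower with Ang II, or 60.9% under 75th percentile scaling. Replicate 4 was the one slide scanned apart from the others at 6 h, and there Tubb3 differed by −1.27. On slides 1 to 3 it differed by −0.45, −1.17 and 0, with a mean of −0.54.

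**Figure D3:**
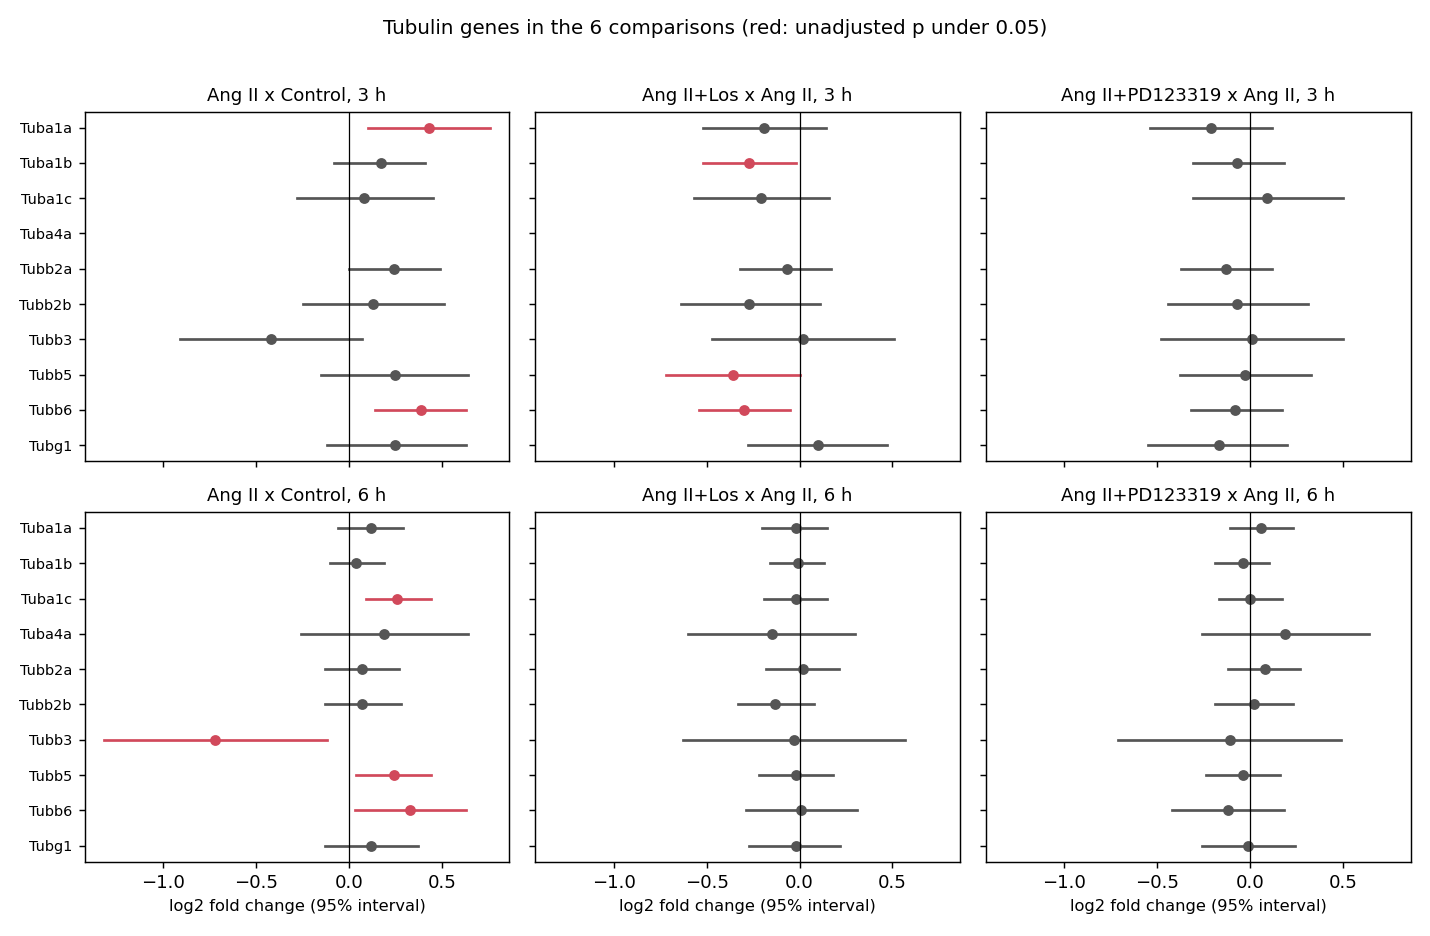
Log2 fold change of each tubulin gene in the 6 comparisons, 3 between groups at 3 h and 3 at 6 h; points are limma estimates within slides, bars are 95% confidence intervals, and red marks an unadjusted p under 0.05. In Ang II x Control 8 of 9 points at 3 h and 9 of 10 at 6 h lie above 0, with Tubb3 below 0 at both times, and at 6 h all intervals of both antagonist comparisons include 0.

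The comparison Ang II+Los x Ang II asks what the AT1 receptor contributed. At 3 h, 3 of 9 members, Tubb6, Tuba1b and Tubb5, were lower with Losartan at an unadjusted p under 0.05, a limit passed downwards by 6.10% and in either direction by 11% of all genes. The median over members was −0.21, with 2 of 9 above 0, against 50.4% of all genes. All 3 were lower on 4 of 4 slides. No gene had an adjusted p under 0.05 in limma (0 of 13630, with 1505 at an unadjusted p under 0.05).

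Tubb6 had log2 signals of 13.19, 11.73, 10.68 and 11.88 with Ang II+Los, all below the Ang II array of the same slide, with differences of −0.21, −0.61, −0.12 and −0.24. Its log2 fold change was −0.30 (interval −0.54 to −0.05, adjusted p = 0.425). Tuba1b, another widely expressed alpha tubulin, had log2 signals of 15.51, 14.93, 13.69 and 15.09 with Ang II and of 15.24, 14.41, 13.67 and 14.82 with Ang II+Los. It was lower on each slide, with the smallest difference on slide 3, and its log2 fold change was −0.27 (interval −0.52 to −0.02, adjusted p = 0.425).

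Tubb5 had log2 signals of 15.57, 14.45, 13.14 and 14.39 with Ang II and of 15.29, 13.57, 13.08 and 14.18 with Ang II+Los. Most of the difference came from slide 2, at −0.88, and the log2 fold change was −0.36 (interval −0.72 to 0.00, adjusted p = 0.425). The members that did not pass were Tubb2b (−0.27), Tuba1c (−0.21), Tuba1a (−0.19), Tubb2a (−0.07), Tubb3 (0.02) and Tubg1 (0.10). Tubg1 was higher with Losartan on slides 1 and 2, by 0.50 and 0.40, and lower on slides 3 and 4. These differences share the Ang II arrays with Ang II x Control.

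The 3 calls were lost without replicate 2, at −0.19 for Tubb6, −0.19 for Tuba1b and −0.18 for Tubb5, and without replicate 4 as well, and those of Tuba1b (−0.26) and Tubb5 (−0.37) also without replicate 1. The mean difference was −0.41 in scan 1 and −0.18 in scan 2 for Tubb6, −0.39 and −0.15 for Tuba1b, and −0.58 and −0.14 for Tubb5. A fit without the slide as a block called 0 members. Under 75th percentile scaling Tubb6 was at −0.16, Tuba1b at −0.07 and Tubb5 at −0.17, with a median of −0.06 over the members and 0 calls. The methods' t-test and a fit to the 8 arrays of the comparison also called 0, and quantile normalization 1. Fitted separately, the probes of Tuba1b gave −0.31 (adjusted p = 0.429) and −0.24 (adjusted p = 0.423), and neither passed the limit on its own. Beside this, the glial marker Cnp, which binds tubulin, was at −1.14 with Losartan at 3 h (adjusted p = 0.425), 1 of 4 tested glial markers past the limit. The part of glial composition in the tubulin values was not tested.

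At 6 h, the members did not differ between Ang II+Los and Ang II beyond the replicate spread. Their log2 fold changes lay between −0.15 and 0.02, and 0 of 10 passed the limit, which 1.99% of all genes passed. For the genes called against Control at 6 h, the intervals were −0.19 to 0.15 for Tuba1c, −0.22 to 0.18 for Tubb5, −0.29 to 0.31 for Tubb6 and −0.63 to 0.57 for Tubb3.

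The comparison Ang II+PD123319 x Ang II asks what the AT2 receptor contributed. At 3 h the members ranged from −0.21 (Tuba1a) to 0.09 (Tuba1c) and 0 of 9 passed the limit, against 3.02% of all genes. The interval for Tuba1a was −0.54 to 0.12 and that for Tubb6 was −0.32 to 0.17. Tuba1a with Ang II+PD123319 read 15.07, 13.88, 12.25 and 14.40, higher than Ang II on slides 1 and 3 and lower on slides 2 and 4, at −0.70 and −0.44. At 6 h the range was −0.12 (Tubb6) to 0.19 (Tuba4a), with 0 of 10 past the limit against 6.37% of all genes. After adjustment limma called 0 genes in each of these antagonist comparisons; before it, 411 (3 h) and 1048 (6 h) passed for PD123319 and 328 for Losartan at 6 h.

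The antagonist groups were also set against each other. Between Losartan and PD123319, 0 of 9 members at 3 h and 0 of 10 at 6 h passed the limit, against 14.7% and 8.06% of all genes. The lowest value at 3 h was that of Tubb5, at −0.33 (interval −0.69 to 0.02, adjusted p = 0.343). Whether both antagonists left the tubulin genes alike is not shown by this, since intervals of the members at 3 h reached from −0.70 (Tuba1c) to 0.64 (Tubg1).

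The antagonist groups were set against Control as well, on the Control arrays that Ang II x Control used, so likeness between these comparisons is no separate evidence. With Ang II+Los at 6 h, Tuba1c (0.25), Tubb5 (0.22) and Tubb6 (0.34) were higher and Tubb3 (−0.75) was lower at an unadjusted p under 0.05, which 22% of all genes passed. With Ang II+PD123319 at 6 h, Tuba1a (0.18), Tuba1c (0.26) and Tubb5 (0.20) were higher and Tubb3 (−0.83) was lower, at a limit passed by 22.9% of all genes, while Tubb6 was at 0.21 (interval −0.08 to 0.51). In these comparisons 1.36% and 1.37% of all genes had an adjusted p under 0.05 in limma, and none of the members did, with a lowest adjusted p of 0.0924 for Tuba1c with Ang II+PD123319. Beside these values, 1 of 4 glial markers was higher with Ang II+Los at 6 h, Cnp at 0.30 (adjusted p = 0.168). With Ang II+PD123319 at 6 h, 2 of 4 glial markers, Cnp at 0.40 (adjusted p = 0.0903) and S100b at 0.24 (adjusted p = 0.164), and 1 of 4 microglial markers, Aif1 at 0.30 (adjusted p = 0.18), were higher. Their part in the tubulin values was not tested.

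Tubb3 shows what these values share. With Ang II+Los at 6 h it read 5.04, 4.54, 5.49 and 5.12, and with Ang II+PD123319 4.70, 4.71, 5.23 and 5.23, so all 3 treated groups lay below the Control arrays of slides 2 and 4 (6.04 and 6.85), while on slide 3 no treated group lay below the Control array (5.18). At 3 h the differences from Control were −0.40 with Ang II+Los and −0.41 with Ang II+PD123319, neither past the limit. Among the other members at 3 h, Tubb6 was higher with Ang II+PD123319 than in Control (0.31, interval 0.06 to 0.55, adjusted p = 0.61), at a limit passed by 7.53% of all genes and upwards by 2.71%. With Ang II+Los it was at 0.09 (interval −0.15 to 0.34), where 0 of 9 members and 21.7% of all genes passed.

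Ordered by mean signal at 3 h, Ang II was the highest of the 4 groups in 6 of 9 members and Control the lowest in 5 of 9. The means of Tubb5 in Control and of Tuba1c in Ang II+PD123319 rest on 3 arrays each there and lack slides that differ from the rest. Tubb5 is among those 5, but within slides it was lower with Ang II+Los than in Control, at −0.11 (interval −0.51 to 0.28). At 6 h Control was lowest in 7 of 10, while the highest group was Ang II in 4 and Ang II+PD123319 in 4. Neighbouring groups in this order differed at an unadjusted p under 0.05 in 0 of 27 cases at 3 h and in 3 of 30 at 6 h. Those 3 all set Control apart from its nearest treated group: Tuba1c (Ang II+Los over Control, adjusted p = 0.107), Tubb5 (Ang II+PD123319 over Control, adjusted p = 0.209) and Tubb3 (Control over Ang II, adjusted p = 0.173).

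The response of a gene at 6 h was also tested against its response at 3 h. For the effects of Ang II, of Losartan and of PD123319, in this order, 0 of 9 members differed between the times at an unadjusted p under 0.05 in each case, against 7.18%, 5.07% and 1.73% of all genes. For Tuba1a, past the limit with Ang II at 3 h and not at 6 h, the difference between the times was −0.31 ± 0.17 (SE, adjusted p = 0.7). The Losartan difference was less negative at 6 h for all 3 members called at 3 h, by 0.26 for Tuba1b, 0.34 for Tubb5 and 0.31 for Tubb6 (each with an adjusted p = 0.701), and Tuba1b lay at the limit. The calls made at only 1 time were therefore not shown to belong to that time.

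The members varied together within slides to differing degrees. After each gene was centred on its slide, Pearson's r between members had a median of 0.32 over 21 pairs at 3 h, over the 7 members with no gap, and of 0.40 over 45 pairs at 6 h, each over 16 arrays that share slides and treatments. The highest r at both times was between Tuba1a and Tubb2a, at 0.86 and 0.90. For Tubb3 r was below 0 with all 9 other members at 6 h, from −0.83 with Tuba1c to −0.27 with Tuba1b. At 3 h it ran from −0.51 with Tubb6 to 0.35 with Tubb2b. These values describe the arrays and were given no test.

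Likeness was taken to the mean of the 7 members with values on all 32 arrays (Tuba1a, Tuba1b, Tubb2a, Tubb2b, Tubb3, Tubb6 and Tubg1). Of 13234 genes with values on all 32 arrays, only non-members with a gene symbol were ranked. Names that were probe IDs, accessions or LOC and RGD numbers were left out. The most alike of those ranked, in slide-centred signal, were Hmgn1, which encodes a nucleosome-binding protein (r = 0.84), and Vps26b, a retromer subunit (0.76). Next came Ndufb6, a subunit of respiratory complex I (0.75), Parp12 (0.75) and Sin3b, a transcriptional corepressor (0.75). Hmgn1 kept the likeness in both time intervals, at 0.87 and 0.65. Parp12 was at 0.89 over the 3 h arrays and at −0.06 over the 6 h arrays, so its place rests on 3 h. The r of Vps26b (0.82 and 0.35), Ndufb6 (0.82 and 0.43) and Sin3b (0.80 and 0.43) was also lower at 6 h.

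Newly made tubulin is folded by the chaperonin CCT, which receives it from prefoldin, and is joined into heterodimers by the tubulin cofactors. All 8 CCT subunits measured were above 0 in Ang II x Control (3 h), from 0.02 to 0.54. Their median was 0.24, the same as that of the members, and 1 of 8 passed the limit: Cct2 was higher by 0.41 (adjusted p = 0.346). At 6 h 7 of 8 were above 0 with a median of 0.06, and Cct8 (0.20, adjusted p = 0.139) and Cct6a (0.22, adjusted p = 0.158) passed. With Losartan at 3 h 4 of 8 were above 0, with a median of −0.06, against −0.21 for the members. There 1 of 8 passed, Cct3, at 0.26 (adjusted p = 0.425). None of the 4 prefoldin genes measured passed in any of the 6 comparisons, and of 6 cofactor and autoregulation genes 1 did, Tbcb, an alpha tubulin cofactor, at −0.25 at 6 h (adjusted p = 0.155). The background for these counts is the share of all genes given above for each comparison.

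Of the other tubulins, 5 were tested at 3 h. In Ang II x Control 2 of the 5 were above 0, with a median of −0.08, and 2 passed. Tuba3b was lower, at −0.43 (adjusted p = 0.325), on 4 of 4 slides, and Tubb2c was higher by 0.31 (adjusted p = 0.377). Tuba3b was higher with PD123319 than with Ang II alone, by 0.27 (adjusted p = 1), past the limit that 3.02% of all genes passed. This difference shares the Ang II arrays with Ang II x Control. At 6 h 0 of 6 passed in any comparison, and in Ang II x Control 3 of 6 were above 0, with a median of 0.

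The proteins that bind the polymer were measured in larger number. In Ang II x Control, 4 of 17 stabilisers and plus-end proteins passed the limit upwards at 3 h and 0 downwards, against 5.29% of all genes upwards. The higher ones included Clip2 (0.35, adjusted p = 0.328), Clasp1 (0.53, adjusted p = 0.338) and Clip1 (0.40, adjusted p = 0.372), which track growing microtubule ends. At 6 h 4 of 18 were higher and 0 lower, against 10.6% of all genes upwards. These included Clasp2 (0.24, adjusted p = 0.117), Clip1 (0.24, adjusted p = 0.138) and Map1a (0.33, adjusted p = 0.149). With Losartan at 3 h, 2 of 17 were lower than with Ang II alone, against 6.1% of all genes downwards. They were Map1a at −0.77 (adjusted p = 0.425) and Map1b at −1.23 (adjusted p = 0.425), both microtubule-associated proteins of neurites. The difference of Map1b lay on slides 1 and 2, at −2.40 and −2.52, while slides 3 and 4 gave 0.29 and −0.28.

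Of the destabilising and severing proteins, 2 of 7 were higher at 3 h in Ang II x Control, against 5.29% of all genes. Kif2c, a depolymerising kinesin, was higher at both times, by 0.35 (adjusted p = 0.383) and 0.26 (adjusted p = 0.134). At 6 h 3 of 9 were higher and 1, Katnal1 (−0.25, adjusted p = 0.159), was lower, against 10.6% and 10.8% of all genes. Fignl1, an ATPase related to the severing enzymes, was higher by 0.65, 0.60, 0.52 and 0.59 on the 4 slides at 6 h. Its log2 fold change was 0.59 ± 0.10 (SE), with an adjusted p of 0.0573.

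Of the enzymes that modify tubulin, 0 of 8 passed at 3 h. At 6 h 2 of 9 were higher and 1 lower in Ang II x Control, against 10.6% and 10.8% of all genes. Ttll12 (0.38, adjusted p = 0.138) and Ttll1 (0.21, adjusted p = 0.213), members of the tubulin ligase family, were higher. Agtpbp1 (−0.15, adjusted p = 0.193), which removes glutamates, was lower. The gene of the alpha tubulin acetyltransferase, named RGD1303066 on the array, was higher with PD123319 at 6 h by 0.28 (adjusted p = 0.559). In the gamma-tubulin ring complex, which holds the product of Tubg1, 1 of 8 passed, Tubgcp6. It was higher with Ang II by 0.39 at 3 h (adjusted p = 0.384) and by 0.35 at 6 h (adjusted p = 0.181). With Losartan at 3 h it was lower, at −0.47 (adjusted p = 0.425), a difference that slide 1 did not share (0.07). Both differences at 3 h share the Ang II arrays. No gene of these lists had an adjusted p under 0.05.

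**Figure D4:**
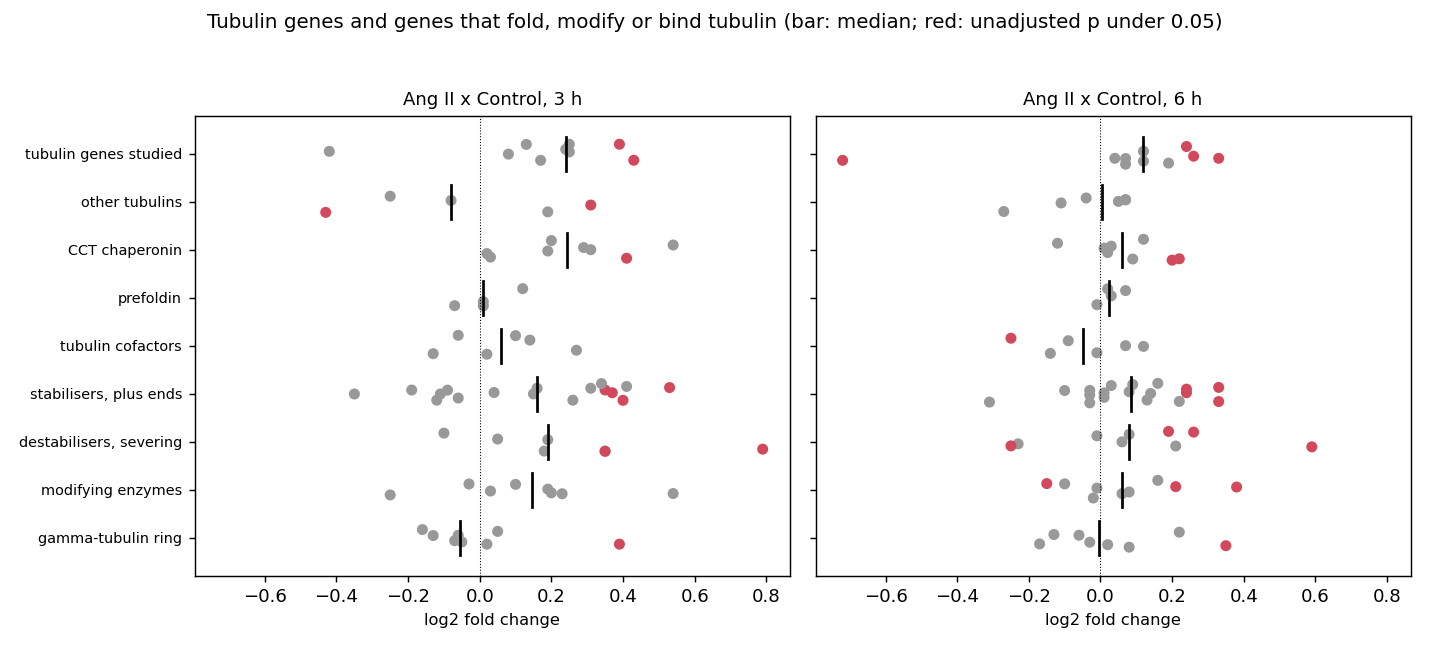
Log2 fold change in Ang II x Control of the tubulin genes studied and of the genes of each microtubule list, 1 point per gene, with the list median as a bar, at 3 h and at 6 h. The CCT chaperonin genes at 3 h all lie above 0 with a median of 0.24, the prefoldin genes lie close to 0, and the highest point at 6 h is Fignl1 at 0.59.

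Markers of other cell types were set beside these results. In Ang II x Control at 3 h, 1 of 3 microglial markers was lower, Cx3cr1 at −1.11 (adjusted p = 0.325), and 0 of 4 glial, 0 of 1 neuronal, 0 of 1 oligodendrocyte and 0 of 1 endothelial markers passed. At 6 h 1 of 4 glial markers was higher, Cnp at 0.43 (adjusted p = 0.106), and 0 of the markers of the other types passed.

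The promoters of all 10 members were found by symbol in RefSeq on GRCr8, as 250 bases before the start of each gene. CCAAT, counted on both strands, was present in 8 of 10 members against 34.3% of 27457 promoters of the same length, and GGGCGG in 8 of 10 against 32.4%. TATAAA was present in 1 of 10, Tubb2a, against 13.1%. Hits of different motifs were counted separately, without regard to overlap. The upstream windows of Tubb6 (chr18:63213037-63213286) and Tubb3 (chr19:68365437-68365686), both on the plus strand, are shown because these members lay on opposite sides of 0 in Ang II x Control at both times. Capitals mark the motifs, with ATTGG and CCGCCC on the opposite strand.
Tubb6: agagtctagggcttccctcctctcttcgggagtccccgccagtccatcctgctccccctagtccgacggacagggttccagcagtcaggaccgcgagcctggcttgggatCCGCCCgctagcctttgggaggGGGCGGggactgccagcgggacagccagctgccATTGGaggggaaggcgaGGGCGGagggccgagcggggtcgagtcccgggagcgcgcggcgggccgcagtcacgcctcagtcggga
Tubb3: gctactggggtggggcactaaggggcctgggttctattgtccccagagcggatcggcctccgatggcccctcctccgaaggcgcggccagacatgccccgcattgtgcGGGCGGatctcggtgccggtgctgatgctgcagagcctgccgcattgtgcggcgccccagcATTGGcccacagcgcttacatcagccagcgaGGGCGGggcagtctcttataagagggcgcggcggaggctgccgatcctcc

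Tubb6 held CCAAT 1 time and GGGCGG 3 times, and Tubb3 held them 1 time and 2 times. A match is a description of the window and not a binding site.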

How the data were processed

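Total RNA of C6 cells was measured on 32 Agilent 1-colour arrays, with 4 replicates in each of 8 groups given by the labels. Per the file headers, Agilent Feature Extraction 9.5.3.1 measured the intensity of every spot, subtracted the background and placed the probes on rn4. The authors deposited these scanner intensities and, in a second table, log2 values without normalization between arrays, which served here as an alternative only.

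Outlier-flagged spots were dropped, and the remaining spots of a probe were averaged on the log2 scale. At 3 h a signal not significant over background was replaced by its error, as the software had done at 6 h. Probes with more than 2 gaps were dropped. Signals were normalized by cyclic loess (span 0.7, 3 iterations) among the 16 arrays of a time interval, and a probe entered when some group had it well above background on each of its 4 arrays. The probes of a gene that entered were averaged, a gap in 1 probe being a gap of the gene. Precision is limited by the number of arrays: over all genes, log2 fold changes had a median SE of 0.16 at 3 h and 0.10 at 6 h.

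Comparisons were fitted by limma 3.58.1 in R 4.3.3, with the package data.table in version 1.17.8, to the 16 arrays of a time interval, with the replicate number (slide) as a block, and p-values were adjusted by Benjamini-Hochberg over all genes tested. An unadjusted p under 0.05, the limit of the study's methods, was counted beside the adjusted p. The replicate number is the slide per the file headers, and arrays of the same slide deviated together (lowest r between them 0.15 at 3 h and 0.55 at 6 h, medians 0.67 and 0.69). At 3 h replicates 1 and 2 were in scan 1 and 3 and 4 in scan 2; at 6 h replicates 1 to 3 were in scan 3 and replicate 4 in scan 4.

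All 10 members are named in every comparison. From each microtubule gene list, genes with an unadjusted p under 0.05 are named, at most 3 for a list and comparison, by lowest p. For likeness the 5 genes with the highest r are named, among non-members with a gene symbol. 1 gene that this rule would name is not reported here. Cx3cr1, Cnp and the other markers are named from marker lists. The members and the lists were chosen with earlier results of these data known. Of the list genes, Tubb1, Tubg2, Pfdn4, Vbp1, Tbcd, Mapre2, Camsap2, Ttll5, Vash1, Agbl5, Tubgcp4, Mzt1, Pcnt and Rbfox3 were not matched to a name on the array. Alternatives were no block, the methods' t-test (paired), 75th percentile scaling, quantile normalization, a normexp background (offset 50), a strict filter and none, the brightest probe, the 8 arrays of a comparison, the deposited log2 values and each replicate left out. The fit was tested on simulated data. Figures and sequences used Python 3.11.15, numpy 2.4.6, pandas 2.3.3 and matplotlib 3.10.9.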

Additional observations from a re-analysis of the deposited data

Results flagged for a closer look

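The signal of Tuba1a in replicate 3 of Ang II at 3 h was 12.14, apart from the other replicates of its group, of which the nearest was at 14.58. The signal of Tubb2b in replicate 1 of Ang II+PD123319 at 3 h was 12.11, with the nearest other replicate at 9.06. The gap made up 0.886 of the group's range for Tuba1a and 0.899 for Tubb2b, which is above Dixon's critical value for a group of 4. These were 2 of 74 groups, and chance flags about 1 in 20 groups. Both arrays lie on the slides that were lowest (slide 3) and highest (slide 1) for 8 of 9 members at 3 h. Without replicate 3 the log2 fold change of Tuba1a in Ang II x Control was 0.59, against 0.43 with it.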

How the results depend on the processing

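Over the 6 comparisons of the study, 790 values of single members were recomputed under the alternatives. None changed sign while past the limit in either fit, 51 crossed 0 while past the limit in neither (largest size 0.14), 48 lost an unadjusted p under 0.05, 5 gained one and 686 kept direction and side. With no replicate block, 0 members passed for Ang II at 3 h (2 with it), 0 for Losartan at 3 h (3 with it) and 0 for Ang II at 6 h (4 with it), and the genes past the limit numbered 354, 343 and 661 in place of 1723, 1505 and 3535. For Ang II at 3 h, 75th percentile scaling left 1 member, and leaving out a replicate gave 0 to 3. For Losartan against Ang II alone at 3 h, the methods' t-test left 0, 75th percentile scaling 0 (median −0.06 in place of −0.21), quantile normalization 1, the 8 arrays of the comparison 0, the deposited values 1 of 5 tested, and leaving out a replicate 0 to 3. With Ang II at 6 h the methods' t-test left 2, and leaving out a replicate gave 1 to 4. The fit without the block leaves the slide spread in the error. For the other alternatives the cause was not tested. Tubb6 passed in Ang II x Control at 3 h under 12 of 14 alternatives (0.31 to 0.47) and Tuba1a under 9 of 14 (0.29 to 0.59); at 6 h Tuba1c passed under 12 of 14 (0.22 to 0.34), Tubb3 under 10 of 14 (−1.39 to −0.37), Tubb5 under 10 of 13 (0.20 to 0.27) and Tubb6 under 8 of 14 (0.20 to 0.48). Scaling alternatives moved the median of all genes by at most 0.05. The fits of each probe of Tuba1b and Tuba1c on its own were chosen after seeing the data.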
